A study of Mus musculus with 30 samples.

Results

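The 10 genes described here act in the secretory pathway and in the response to stress of the endoplasmic reticulum (ER). They are Atf6, Xbp1, Atf4, Ddit3, Creb3l1, Creb3l2, Hspa5, Hsp90b1, Sec23a and Sec24d. They were chosen by name, and all 10 were found among the 43629 genes of the deposited table of raw read counts, of which 27445 had at least 1 count. The tissue was the fracture callus of male C57BL/6J mice aged 20 weeks, after an open osteotomy of the right tibia with a nail in the marrow cavity. Lean mice were fed a low-fat diet and were sampled on days 3, 5, 7 and 10 after fracture (d3, d5, d7 and d10). Mice with diet-induced obesity (DIO) were fed a high-fat diet and were sampled on the same 4 days and also on d14 and d21. All mice were fractured, and each of the 30 libraries came from 1 callus, with 3 mice in each of the 10 groups. Lean callus of d14 and d21 was not analysed here. The comparisons ask how these genes changed with the day in each diet, and where DIO differed from lean callus on the same day.

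Proteins that leave the cell are folded in the ER, where Hspa5 (BiP) and Hsp90b1 (GRP94) are abundant chaperones. When unfolded proteins build up, 3 sensors in the ER membrane are activated. Atf6 is cut into a transcription factor, Ern1 (IRE1) splices the Xbp1 mRNA, and Eif2ak3 (PERK) slows translation while Atf4 and its target Ddit3 (CHOP) are made. Creb3l1 (OASIS) and Creb3l2 (BBF2H7) resemble Atf6 and are known for their roles in osteoblasts and chondrocytes, cells that secrete large amounts of collagen. Folded cargo leaves the ER in vesicles coated by COPII, whose inner layer is built from Sec23 and Sec24 proteins such as Sec23a and Sec24d. Read counts per gene show mRNA levels only, so neither the splicing of Xbp1 nor the cleavage of Atf6, Creb3l1 and Creb3l2 was measured.

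Promoter sequences were taken from RefSeq (build GRCm38.p6) as windows of 300 bases, from 250 before to 50 after the transcription start, and were found for 8 of the 10 genes. The sequences of Hspa5, Hsp90b1, Sec23a and Sec24d are printed because they held a motif linked with the unfolded protein response, and because Hspa5 moved with Hsp90b1, and Sec23a with Sec24d, from library to library. Capitals mark the motif, and each sequence reads 5′ to 3′ in the direction of its gene.
Hspa5 (chr2:34771840-34772139, plus strand): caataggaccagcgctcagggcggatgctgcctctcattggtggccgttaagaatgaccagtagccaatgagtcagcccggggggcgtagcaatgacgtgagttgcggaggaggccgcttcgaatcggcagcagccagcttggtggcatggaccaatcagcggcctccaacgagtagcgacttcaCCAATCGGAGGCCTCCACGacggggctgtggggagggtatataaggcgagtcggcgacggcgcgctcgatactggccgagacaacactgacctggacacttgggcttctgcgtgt
Hsp90b1 (chr10:86705395-86705694, minus strand): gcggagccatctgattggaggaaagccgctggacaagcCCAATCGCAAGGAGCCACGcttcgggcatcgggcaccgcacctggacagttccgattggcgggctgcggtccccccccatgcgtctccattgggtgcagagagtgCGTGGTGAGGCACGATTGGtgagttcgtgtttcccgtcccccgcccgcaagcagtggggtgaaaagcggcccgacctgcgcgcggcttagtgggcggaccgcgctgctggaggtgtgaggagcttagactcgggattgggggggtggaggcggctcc
Sec23a (chr12:59011968-59012267, minus strand): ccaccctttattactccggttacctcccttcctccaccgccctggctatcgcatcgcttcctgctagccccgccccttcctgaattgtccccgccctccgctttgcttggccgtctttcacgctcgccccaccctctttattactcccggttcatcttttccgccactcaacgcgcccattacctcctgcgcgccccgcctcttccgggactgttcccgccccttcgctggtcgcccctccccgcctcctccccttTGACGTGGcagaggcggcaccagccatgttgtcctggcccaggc
Sec24d (chr3:123267246-123267545, plus strand): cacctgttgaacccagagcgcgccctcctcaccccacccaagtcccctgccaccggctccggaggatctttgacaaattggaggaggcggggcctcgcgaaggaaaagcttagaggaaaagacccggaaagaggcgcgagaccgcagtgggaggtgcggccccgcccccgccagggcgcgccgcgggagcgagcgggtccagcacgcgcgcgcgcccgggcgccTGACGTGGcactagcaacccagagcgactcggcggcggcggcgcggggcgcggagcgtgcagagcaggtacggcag

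Both strands were searched. The ER stress response element, written here as CCAAT, then 9 bases, then CCACG, stood once in the Hspa5 window, at -65 to -47 from the start. It stood at 2 places in the Hsp90b1 window, at -212 to -194 and, on the opposite strand, at -107 to -89. Of all 32851 promoters of this length, 39 (0.119%) held this element. The unfolded protein response element TGACGTGG was found in Sec23a at 6 to 13 bases after the start and in Sec24d at -26 to -19, and 222 promoters (0.676%) held it. Its last 5 letters contain CCACG on the other strand, so these 2 motifs overlap, and CCACG alone was in 32.8% of promoters. The element ATTGG, any base, CCACG was in 0.0365% of promoters, the cyclic AMP response element TGACGTCA in 1.79% and the amino acid response element TGATGCAAT in 0.192%. None of these last 3 was in any of the 8 windows. A match describes the letters in the window and does not show that a factor bound there.

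Total counts ran from 13247122 to 26365620 reads per library (median 16854427). The lowest count of any of the 10 genes in a library was 326 reads (Ddit3) and the highest 16525 reads (Hspa5). Levels are given as CPM, reads of a gene per megaread of the library, scaled over all 30 libraries by the trimmed mean of M-values (TMM). Folds and adjusted p-values come from edgeR's quasi-likelihood test with Benjamini-Hochberg adjustment over all genes tested, and a gene was called when its adjusted p was below 0.05. In a bulk sample, a change in the number of cells of a type and a change in the RNA per cell cannot be told apart.

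To compare levels between genes, CPM was divided by the summed exon length in kilobases (RPKM). By the median RPKM of the 30 libraries, with the lowest and highest library in parentheses, Atf4 stood at 132 (94.9 to 175), Hspa5 at 132 (79 to 220.2) and Hsp90b1 at 111 (61.5 to 213). Xbp1 followed at 75.8 (52.1 to 91.4) and Creb3l1 at 72.7 (10.8 to 142). The other genes were lower, with Ddit3 at 18.2 (10.8 to 33.5), Sec23a at 17.8 (8.97 to 29.1), Sec24d at 14.9 (7.02 to 25.9), Creb3l2 at 11.5 (5.41 to 23.3) and Atf6 at 6.77 (4.65 to 8.71). The ranges of each neighbouring pair in this order overlapped. Creb3l1 varied most between libraries, with the highest 13.1 times the lowest, and Xbp1 least, with a ratio of 1.75.

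**Figure D1:**
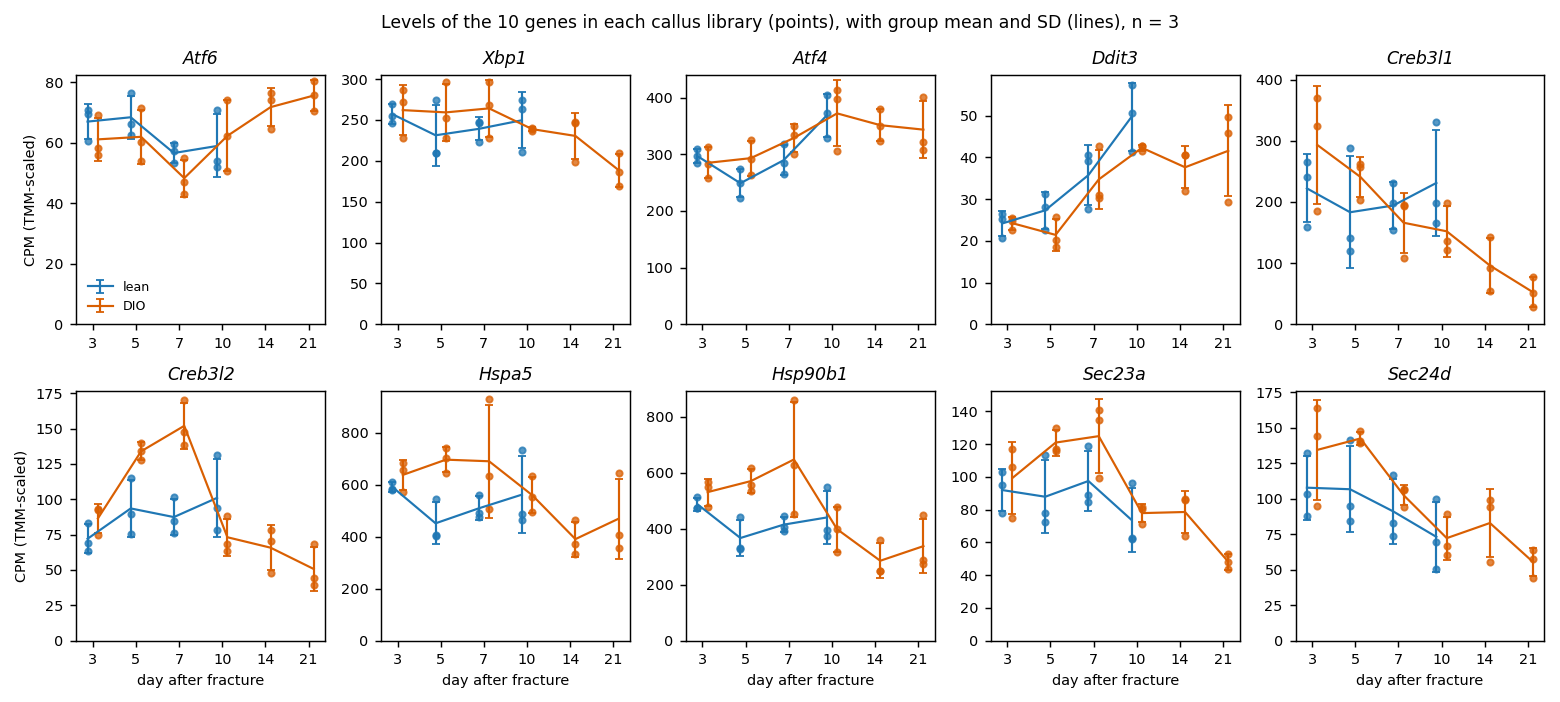
Level of each of the 10 genes in CPM (vertical axis, from 0) against the day after fracture (horizontal axis, evenly spaced), for lean (blue) and DIO (orange) callus; points are single libraries, lines join group means and bars are 1 SD (n = 3). Creb3l2 in DIO callus lay between 138 and 170.0 CPM on d7 and between 63 and 87.9 CPM on d10, and Creb3l1 was lowest in DIO callus of d21.

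Creb3l2 (chr6:37327255-37442146, minus strand on GRCm38) was the member called between the diets on a single day. In lean callus, its 3 libraries measured 83.4, 63.3 and 69.3 CPM on d3, 75.4, 89.7 and 115 on d5, 84.4, 76.3 and 101 on d7 and 131, 77.9 and 93.6 on d10. In DIO callus they measured 74.4, 92.9 and 92 CPM on d3, 127, 139.9 and 134 on d5, 138, 148 and 170.0 on d7 and 87.9, 68.3 and 63 on d10. Every DIO library was above every lean library on d5 and d7, whereas the diets overlapped on d3 and d10. On d7, Creb3l2 was 1.75-fold higher in DIO than in lean callus (log2 fold change 0.81 ± 0.18 (SE), adjusted p = 0.0472). The d5 difference did not pass the test (log2 fold change 0.52 ± 0.16 (SE), adjusted p = 0.141), nor did that of d10, where the fitted value was below 0 (log2 fold change -0.46 ± 0.22 (SE), adjusted p = 0.686). The change of the diet difference from d7 to d10 was itself tested over the 24 libraries of d3 to d10 and passed (log2 fold change -1.27 ± 0.27 (SE), adjusted p = 0.00958). Without single libraries or under other settings this change of difference passed in 17 of 17 alternatives, with adjusted p from 0.00042 to 0.0395. The d7 difference passed in 6 of 12, with adjusted p from 0.00318 to 0.278. The 6 losses included those without replicate 1 or 2 of lean d7 (0.171 and 0.278), without replicate 1 or 2 of DIO d7 (0.0808 and 0.074), and with total counts in place of TMM (0.0812).

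In DIO callus, Creb3l2 fell 2.1-fold from d7 to d10 (log2 fold change -1.07 ± 0.21 (SE), adjusted p = 0.00229), and the libraries of these days did not overlap. It then measured 70.6, 48 and 78.5 CPM on d14 and 39.4, 68.4 and 44.1 on d21. All libraries of d21 lay below all of d3 (log2 fold change -0.75 ± 0.21 (SE), adjusted p = 0.00728). No change between the days was called in lean callus (adjusted p = 0.301 for any day).

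Chondrocytes are cells in which Creb3l2 is known to act. Of 10 chondrocyte markers, 3 were called higher in DIO than in lean callus of d7, against 1.4% of all genes. The diet difference of 8 of these markers became lower from d7 to d10, against 3.37% of all genes. Their summed level (10 of 10 genes found, none at 0 in any group) was 18800 to 43270 CPM in DIO and 6075 to 17390 CPM in lean callus of d7. On d10 it was 4343 to 8802 CPM in DIO and 13730 to 72200 CPM in lean callus. Col2a1, the main cartilage collagen, had a change of the diet difference from d7 to d10 of -5.07 ± 1.14, adjusted p = 0.0143. The summed fibroblast list was at 9510 to 17660 CPM in DIO and 7197 to 9330 CPM in lean callus of d7, without overlap. On d5 it was 12040 to 13300 CPM in DIO and 8245 to 11280 CPM in lean callus, also without overlap. On d10 the diets overlapped, with 5140 to 5933 CPM in DIO and 5287 to 8620 CPM in lean callus. The part of the chondrocyte and fibroblast shares in the Creb3l2 result was not tested.

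Creb3l1 (chr2:91982328-92024502, minus strand) is best known from osteoblasts, where it promotes collagen expression. Its lean libraries measured 266, 159.6 and 241 CPM on d3, 121, 140.3 and 289 on d5, 198, 154 and 232 on d7 and 329.9, 165 and 198 on d10. These days overlapped, and no change between them was called (adjusted p = 0.808 for any day). In DIO callus it measured 184, 370.4 and 325 CPM on d3, 262, 203 and 258 on d5, 195, 109 and 194 on d7, 199, 136 and 121 on d10, 92.3, 53.8 and 142 on d14 and 28.2, 77.7 and 51.1 on d21. It was 5.49-fold lower on d21 than on d3 (log2 fold change -2.46 ± 0.39 (SE), adjusted p = 8.12e-05), the largest fold of the 10 genes over these comparisons, and it passed in 12 of 12 alternatives. No step between neighbouring DIO days passed the test for Creb3l1, and the lowest adjusted p was that of d21 against d14 (0.111). Without replicate 2 of d14 that step passed (adjusted p = 0.0372), as it did without replicate 2 of d21 (adjusted p = 0.029). Diet differences for Creb3l1 ran from -0.59 ± 0.29 (log2, SE) on d10 to 0.40 ± 0.31 on d5, and none was called.

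Sec23a (chr12:58958383-59012017, minus strand) is part of the inner layer of the COPII coat. Its DIO libraries measured 74.8, 117 and 106 CPM on d3, 116, 130.1 and 117 on d5, 134, 141 and 99.1 on d7, 80.4, 71.5 and 81.6 on d10, 85.6, 63.8 and 86.2 on d14 and 47.9, 43.4 and 53.1 on d21. The fall came in 2 steps without overlap, from d7 to d10 (log2 fold change -0.69 ± 0.17 (SE), adjusted p = 0.0128) and from d14 to d21 (log2 fold change -0.69 ± 0.17 (SE), adjusted p = 0.0121). From d3 to d21 it fell 2.03-fold (log2 fold change -1.02 ± 0.18 (SE), adjusted p = 0.000174). The first step was lost without replicate 2 of d7 (adjusted p = 0.058) or of d10 (0.0613), and the second without replicate 1 of d14 (0.0524) or replicate 3 of d14 (0.0528). In lean callus Sec23a ranged from 62.1 to 119 CPM, with no change called. An annotated antisense gene overlaps 8.9% of the exon length of Sec23a, but had 0 reads in all libraries.

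Sec24d (chr3:123267455-123365641, plus strand) binds cargo in the COPII coat. It measured 95.1, 164 and 144 CPM on d3, 141, 139 and 148 on d5, 107, 106 and 94.1 on d7, 89.3, 60.3 and 67 on d10, 99.2, 55.4 and 94 on d14 and 44.4, 63.9 and 57.8 on d21 in DIO callus. The d21 libraries lay below all of d3, a 2.38-fold fall (log2 fold change -1.25 ± 0.23 (SE), adjusted p = 0.000271). The step from d7 to d10 had no overlap but did not pass (log2 fold change -0.52 ± 0.22 (SE), adjusted p = 0.144). In lean callus it ranged from 50.5 to 141 CPM, and d10 against d3 did not pass (log2 fold change -0.54 ± 0.28 (SE), adjusted p = 0.155), though it did without replicate 3 of lean d10 (adjusted p = 0.0417). On no day was either coat gene called between the diets. On d5 the values were 0.46 ± 0.17 for Sec23a and 0.42 ± 0.18 for Sec24d (log2, SE; adjusted p = 0.202 and 0.268).

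The 2 ER chaperones followed each other closely. Hspa5 (chr2:34771970-34777547, plus strand) measured 578, 584 and 612 CPM in lean callus on d3, 405, 404 and 545 on d5, 490.5, 475 and 562 on d7 and 734, 465 and 487 on d10. In DIO callus it measured 573, 684 and 655 CPM on d3, 645, 741 and 704 on d5, 634, 931 and 506 on d7, 494, 553 and 632 on d10, 372, 334 and 465 on d14 and 645, 358 and 405 on d21. The 3 mice of DIO d7 were far apart, with replicate 2 highest of all 30 libraries for both chaperones.

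Hsp90b1 (chr10:86690209-86705509, minus strand) measured 474, 474 and 514 CPM in lean callus on d3, 328, 329 and 441 on d5, 391, 407 and 444 on d7 and 549.9, 372 and 396 on d10. In DIO callus it measured 476, 548 and 567 CPM on d3, 535, 556 and 617 on d5, 629, 860.3 and 451 on d7, 317, 398 and 478 on d10, 248, 249 and 358 on d14 and 449, 275 and 288 on d21. All DIO libraries were above all lean libraries on d5 for both chaperones and on d7 for Hsp90b1. None of these differences passed the test. On d5 they were 0.63 ± 0.15 for Hspa5 and 0.64 ± 0.15 for Hsp90b1 (log2, SE; adjusted p = 0.0924 and 0.0896), and on d7 0.45 ± 0.24 and 0.65 ± 0.24 (adjusted p = 0.4 and 0.206).

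The time courses of d3 to d10 differed between the diets for Hsp90b1 (adjusted p = 0.0354) and Creb3l2 (adjusted p = 0.0112), with Hspa5 above the threshold (adjusted p = 0.0786). This was 2 of 10 genes, against 8.13% of all genes tested. Leaving out single libraries ended the Hsp90b1 call in 10 of 24 cases, namely replicate 2 of lean d3, replicates 1 and 2 of lean d5 and of lean d7, replicate 3 of DIO d3 and of DIO d5, replicates 1 and 2 of DIO d7 and replicate 2 of DIO d10, with adjusted p from 0.0504 to 0.0839. From d3 to d21 in DIO callus Hsp90b1 fell 1.55-fold (log2 fold change -0.63 ± 0.24 (SE), adjusted p = 0.0378), a call lost without replicate 2 or 3 of d3 or replicate 2 or 3 of d21 (adjusted p from 0.0792 to 0.121). A pseudogene on the opposite strand, 1810014B01Rik, overlaps 10.3% of the exon length of Hsp90b1 and had 1203 reads in all libraries, against 235280 for Hsp90b1.

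Among the transcription factors of the stress response, Ddit3 (chr10:127290774-127296288, plus strand) was higher on the last day sampled than on d3 in both diets. Its lean libraries measured 20.8, 26.5 and 25.2 CPM on d3, 22.5, 31.3 and 28.1 on d5, 39.2, 40.5 and 27.6 on d7 and 57.4, 50.6 and 41.2 on d10. The DIO libraries measured 24.7, 22.5 and 25.5 CPM on d3, 25.7, 20.1 and 18.5 on d5, 31, 30.4 and 42.8 on d7, 41.5, 42.7 and 42.8 on d10, 31.9, 40.5 and 40.6 on d14 and 45.7, 29.3 and 49.8 on d21. Ddit3 was 2.09-fold higher on d10 than on d3 in lean callus (log2 fold change 1.06 ± 0.19 (SE), adjusted p = 0.0023) and 1.74-fold higher on d21 than on d3 in DIO callus (log2 fold change 0.80 ± 0.19 (SE), adjusted p = 0.0025). Both calls passed in 12 of 12 alternatives, and neither pair of days overlapped. The diet differences of Ddit3 ran from -0.35 ± 0.18 on d5 to -0.01 ± 0.14 on d3 (log2, SE), and none was called. A further annotated Ddit3 locus on the same strand, not analysed here, shares 6.13% of the exon length, and Mars on the opposite strand shares 3.97%.

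Atf4 (chr15:80255184-80257541, plus strand), which acts upstream of Ddit3, ranged from 224 to 413 CPM over the 30 libraries. A difference between the lean days was called (adjusted p = 0.0416), but it was lost in 14 alternatives, with adjusted p from 0.051 to 0.16, among them all but 1 of the 12 that left out a library. The values of lean d10, 404, 329 and 373 CPM, lay above those of lean d3, 284, 309.9 and 297 CPM, without passing the test (log2 fold change 0.33 ± 0.13 (SE), adjusted p = 0.079). In DIO callus no difference between the days was called (adjusted p = 0.156).

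Xbp1 (chr11:5520659-5525893, plus strand) ranged from 169 to 297 CPM. It was lowest in DIO callus of d21 (209.7, 169 and 187 CPM), below all of d3 (228, 286 and 272 CPM), and this was its only call in a comparison of 2 groups (log2 fold change -0.45 ± 0.15 (SE), adjusted p = 0.0203). It was lost without replicate 2 or 3 of d3 or replicate 2 of d21 (adjusted p from 0.0548 to 0.0704). Atf6 (chr1:170704674-170867771, minus strand) ranged from 43 to 80.4 CPM. A difference over all DIO days was called (adjusted p = 0.0217), from 46.9, 55 and 43 CPM on d7 to 80.4, 75.9 and 70.4 CPM on d21, while no comparison of 2 groups was called. The call over all DIO days was lost without replicate 1 or 3 of d7, replicate 1 of d14 or replicate 1 of d21 (adjusted p from 0.0504 to 0.0662).

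Counted over the 10 genes, DIO callus of d21 against d3 gave the most calls of any comparison of 2 groups. There, 6 were lower (Creb3l1, Creb3l2, Sec23a, Sec24d, Xbp1 and Hsp90b1), against 21.8% of all genes tested, and 1 was higher (Ddit3), against 23.5%. The median log2 fold change was -0.54 for the 10 genes and 0.03 for all genes. From d7 to d10 in DIO callus 2 were lower (Creb3l2 and Sec23a) and 0 higher, against 7.01% and 6.01% of all genes. Hsp90b1 did not pass at this step (log2 fold change -0.71 ± 0.24 (SE), adjusted p = 0.056). It was called lower by DESeq2 (adjusted p = 0.0279), with all 30 libraries in 1 fit (0.029) and without replicate 3 of d7 (0.0152). From d14 to d21 1 was lower (Sec23a) and 0 higher, against 9.03% and 10.6%. None was called for d5 against d3, d7 against d5 or d14 against d10, where 1.68%, 0.0177% and 0.759% of all genes were. Taking all DIO days together, 8 of 10 differed, against 59.1% of all genes.

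In lean callus, d10 against d3 gave 1 higher gene (Ddit3) and 0 lower, against 15.2% and 14.1% of all genes. Over all lean days 2 of 10 differed (Ddit3 and Atf4), against 19% of all genes. No member was called for d5 against d3, d7 against d5 or d10 against d7, with 0.449%, 0% and 2.73% of all genes. For d7 against d5 edgeR called 0 genes, with 926 at an unadjusted p below 0.05, and DESeq2 called 38 genes.

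Between the diets, 1 member was higher in DIO callus of d7 (Creb3l2) and 0 were lower, against 1.4% and 0.92% of all genes. None was called on d5, where 1.08% of all genes were. Leaving out replicate 3 of lean d5, the highest of the 3 lean d5 libraries for Creb3l1, Creb3l2, Hspa5, Hsp90b1, Sec23a and Sec24d, gave 6 calls on d5, these genes being higher in DIO callus with adjusted p from 0.0198 to 0.0296. How many of all genes were called without that library is not given here. DESeq2 called 3 on d5 with all libraries (Creb3l2, Hspa5 and Hsp90b1), beside 1116 of the 15725 genes it tested. On d3 and on d10 edgeR called 0% of all genes, with 2374 and 1082 at an unadjusted p below 0.05, while DESeq2 called 753 and 56 genes but none of the 10. The change of the diet difference from d7 to d10 was called for 1 member, which was lower (Creb3l2), and 0 higher, against 3.37% and 1.7% of all genes. From d3 to d10 it was called for none, against 0.00586%.

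**Figure D2:**
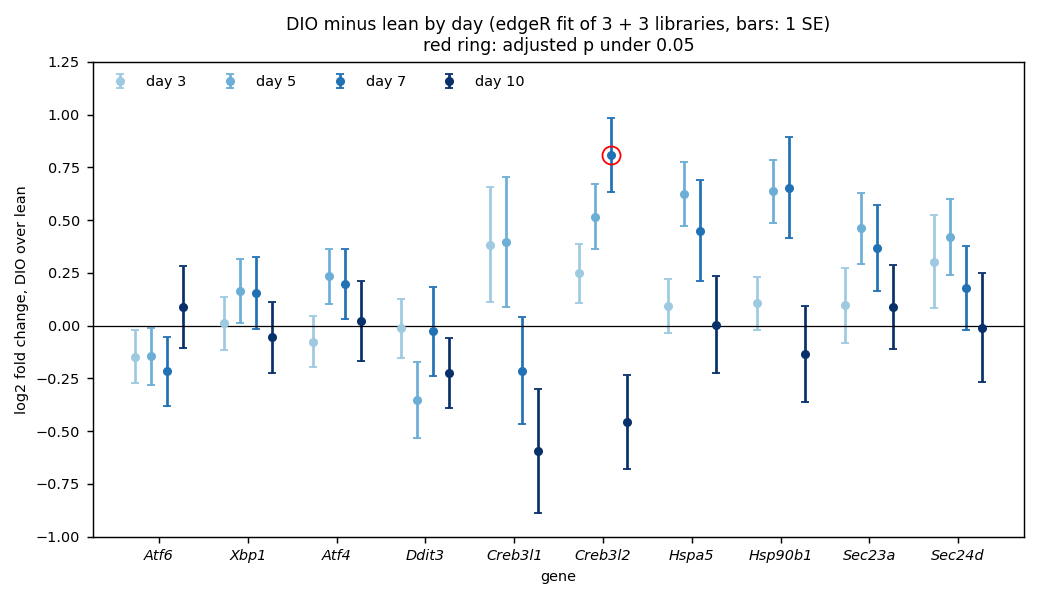
Log2 fold change of DIO over lean callus (vertical axis) for each of the 10 genes (horizontal axis) on d3, d5, d7 and d10, from light to dark; points are edgeR estimates from 3 libraries per diet and bars are 1 SE. Only Creb3l2 on d7 (0.81 ± 0.18) carries the red ring of an adjusted p below 0.05, and its d10 value lies below 0.

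Related genes were taken from 10 lists that hold none of the 10 genes. In DIO callus of d21 against d3, the procollagen folding helpers, enzymes and chaperones that hydroxylate and fold collagen, were lower for 14 of 16 genes and higher for 0 (median -1.38 on the log2 scale). P4ha3, P4ha1 and P4ha2, subunits of the prolyl hydroxylase of collagen, fell by 3.67, 1.73 and 1.86 on the log2 scale. Genes of the COPII coat and ER export were lower for 15 of 24 and higher for 1, Klhl12, a ubiquitin ligase adaptor that acts on COPII (1.87 ± 0.17, adjusted p = 7.66e-07). Of the COPI coat and Golgi genes 14 of 24 were lower, among them the KDEL receptors Kdelr3 (-1.70 ± 0.23, adjusted p = 1.75e-05) and Kdelr2 (-1.47 ± 0.21, adjusted p = 3.3e-05), which return ER proteins from the Golgi. Of the ER translocation genes 13 of 29 were lower and 2 higher, with Sec61a1, the channel of the translocon, at -1.51 ± 0.21, adjusted p = 2.88e-05. Of the ER chaperones and folding enzymes 11 of 24 were lower and 1 higher, with Hyou1 at -1.02 ± 0.15, adjusted p = 5.51e-05. These shares stand beside 21.8% lower and 23.5% higher among all genes, whose median was 0.03 on the log2 scale.

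In the lists of stress signalling, calls for DIO callus of d21 against d3 were few or went both ways. Of the targets of ATF4 and CHOP, 5 of 23 were higher and 7 lower, against 23.5% and 21.8% of all genes. Ppp1r15a, which restores translation after stress, was higher (2.93 ± 0.39, adjusted p = 1.86e-05), while Aldh18a1, an enzyme of proline synthesis, was lower (-1.14 ± 0.17, adjusted p = 4.68e-05). Of the genes of ER-associated degradation 4 of 15 were higher (1 without replicate 1 or 3 of d3, 2 without replicate 1 or 2 of d21) and 2 lower (0 without replicate 1 of d21, 1 without replicate 2 of d3), with Herpud1 at 0.87 ± 0.17, adjusted p = 0.000411 and Derl3, also on the plasma cell list, at 1.31 ± 0.43, adjusted p = 0.0195. Of the sensors and their signalling partners 2 of 9 tested were lower and 0 higher (1 to 2 lower and 0 to 1 higher when single libraries were left out, with 1 lower without replicate 1 or 2 of d3 or replicate 1 of d21, and 1 higher without replicate 2 or 3 of d21), with Ern1 at -0.24 ± 0.23, adjusted p = 0.406 and Eif2ak3 at 0.37 ± 0.17, adjusted p = 0.0831. Mbtps1, the protease that cuts Atf6 and its relatives, was at -0.13 ± 0.14, adjusted p = 0.497. Of the other CREB3 family genes Creb3 (-0.54 ± 0.18, adjusted p = 0.0212) and Creb3l4 (-1.68 ± 0.37, adjusted p = 0.00144) were lower, Creb3 not without replicate 3 of d3, and Creb3l3 was at -0.30 ± 0.39, adjusted p = 0.55. Of the collagens 4 of 11 were lower and 2 higher, with 0 higher without replicate 2 of d21 and 1 without replicate 1 of d3. Col3a1, a fibrillar collagen of soft tissue, was lower (-3.02 ± 0.34, adjusted p = 4e-06), and Col1a1 of bone was at -0.53 ± 0.34, adjusted p = 0.217. Col10a1 of hypertrophic cartilage was higher (3.71 ± 1.05, adjusted p = 0.00806), from a group mean of 1.98 CPM on d3 to 24.8 CPM on d21. Both were far below its DIO means of 2918 CPM on d7, 1401 CPM on d10 and 178 CPM on d14.

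**Figure D3:**
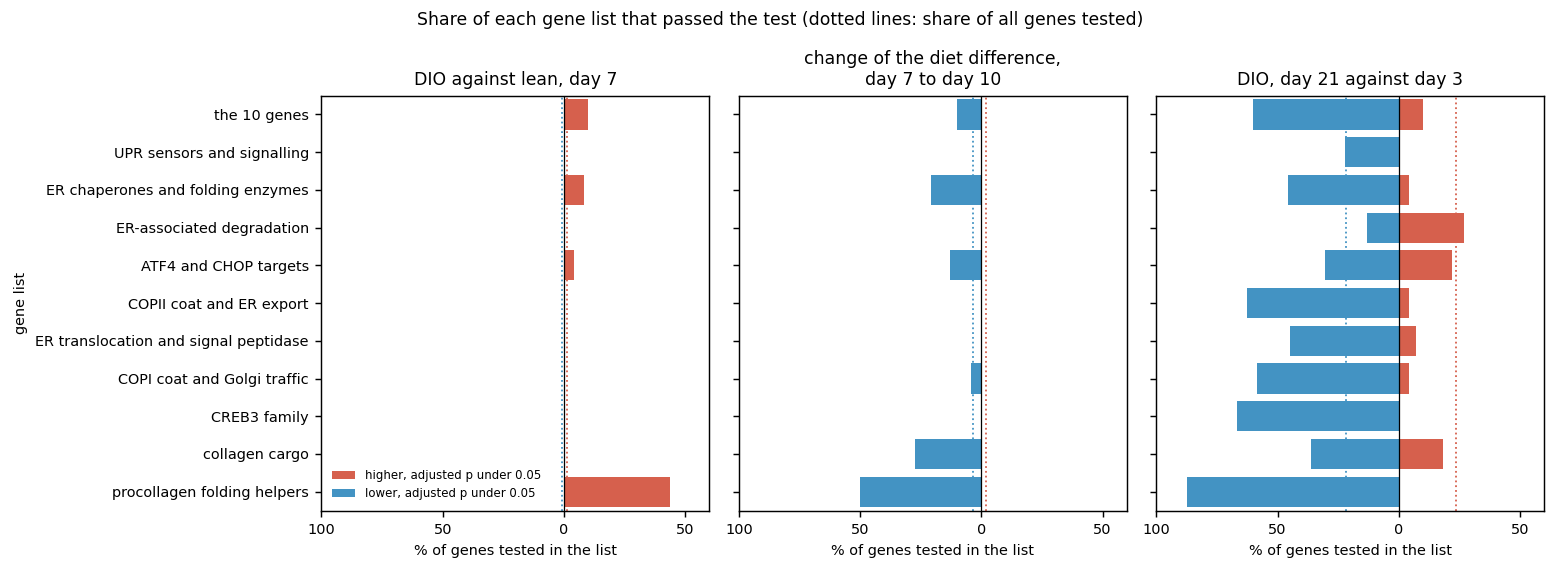
Share of the genes tested in each list (horizontal axis, percent) that were called higher (red, to the right) or lower (blue, to the left), for DIO against lean callus on d7, the change of the diet difference from d7 to d10, and DIO callus of d21 against d3; dotted lines mark the shares of all genes tested. The procollagen folding helpers have 7 of 16 genes higher in the first panel and 8 and 14 lower in the panels to its right.

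On d7, where Creb3l2 was higher in DIO than in lean callus, 1.4% of all genes were higher and 0.92% lower. Of the procollagen folding helpers 7 of 16 were higher and 0 lower (median 0.72 on the log2 scale). These included P4ha2 (1.46 ± 0.15, adjusted p = 0.0047), the prolyl hydroxylase P3h2 (2.09 ± 0.24, adjusted p = 0.00629) and the lysyl hydroxylase Plod3 (1.15 ± 0.18, adjusted p = 0.0173). Of the ER chaperones and folding enzymes 2 of 24 were higher, namely the oxidase Ero1l, also a listed target of ATF4 and CHOP (0.97 ± 0.18, adjusted p = 0.0285) and Creld2 (0.81 ± 0.15, adjusted p = 0.0293). With total counts in place of TMM, 5 of the folding helpers were called in place of 7. Leaving out single libraries gave 2 to 7 folding helpers, with 2 without replicate 1 or 2 of lean d7, 3 without replicate 1 or 2 of DIO d7 and 4 without replicate 3 of lean d7. It gave 0 to 4 chaperones and folding enzymes, with 0 without replicate 1 of DIO d7 or replicate 1 or 2 of lean d7. None of the COPII, COPI, translocation or ER-associated degradation genes was called on d7 with all libraries. Without replicate 3 of DIO d7, however, 4 translocation genes and 1 of ER-associated degradation were called higher. The shares of all genes in this paragraph come from fits with all libraries, also where counts without a library are given. Ern1 was at -0.46 ± 0.20, adjusted p = 0.282. With total counts the median of all genes moved by -0.15 (log2) on d7 and the calls from 221 higher and 145 lower to 168 and 292. From d7 to d10 the diet difference of 8 of 16 folding helpers and 5 of 24 chaperones and folding enzymes became lower. The same held for 3 targets of ATF4 and CHOP (Trib3, Shmt2 and Mthfd2) and 3 collagens (Col9a1, Col2a1 and Col3a1). Of all genes, 3.37% became lower and 1.7% higher. When single libraries were left out, 0 to 7 of these targets were called, with 0 without replicate 1 of lean d10 or of DIO d10, and 1 to 5 collagens, with Col9a1 alone without replicate 1 of lean d10, replicate 1 of DIO d10 or replicate 2 of lean d7. For this change total counts moved the median of all genes by 0.25 and the calls from 290 higher and 575 lower to 671 and 372. The time course differed between the diets for 12 of 24 chaperones and folding enzymes and for 10 of 16 folding helpers, against 8.13% of all genes. When single libraries were left out, these numbers ran from 4 (without replicate 2 of lean d5) to 14 and from 6 to 13. The numbers for the change from d7 to d10 then ran from 5 to 11 folding helpers, with 5 without replicate 1 of lean d10, replicate 1 of DIO d10 or replicate 2 of lean d7, and from 0 (without replicate 1 of DIO d10) to 10 chaperones and folding enzymes.

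In lean callus of d10 against d3, 8 of 11 collagens were higher, among them Col2a1 (7.36 ± 1.06, adjusted p = 0.000806), Col10a1 (9.75 ± 1.59, adjusted p = 0.00151) and Col1a1 (1.04 ± 0.33, adjusted p = 0.0314). Of the folding helpers 5 of 16 were higher and 1 lower, with 2 higher without replicate 2 of lean d3 and 3 without replicate 1. Ern1 was lower (-0.99 ± 0.16, adjusted p = 0.00153) and Creb3 higher (0.84 ± 0.19, adjusted p = 0.00714). Ddit3 was the only one of the 10 genes called there. Of the targets of ATF4 and CHOP 3 of 23 were higher and 4 lower (12 lower with total counts, 9 without replicate 1 of lean d10). With all libraries and TMM these counts were near the shares of all genes, 15.2% higher and 14.1% lower. With total counts in place of TMM the median of all genes moved by -0.29 (log2) in this comparison, 1199 genes were higher and 4173 lower in place of 2508 and 2317, and Hsp90b1 and Sec24d were called lower (adjusted p = 0.0324 and 0.0409). Marker lists moved with these calls, with 10 of 10 chondrocyte, 9 of 10 osteoblast and osteocyte and 8 of 8 osteoclast genes higher on lean d10, and 5 of 10 neutrophil and 6 of 10 monocyte and macrophage genes lower. The chondrocyte sum was between 1006 and 1630 CPM on lean d3 and between 13730 and 72200 CPM on lean d10, and its part in the changes of Ddit3 and the lists was not tested.

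Summed marker levels of several cell types also differed between d3 and d21 of DIO callus. The fibroblast list (8 of 8 genes found) was between 8246 and 11140 CPM on d3 and between 1689 and 2928 CPM on d21. The osteoblast and osteocyte list (10 of 10) was between 17540 and 35280 CPM on d3 and between 15000 and 26840 CPM on d21, with overlap. The chondrocyte list was between 969.7 and 2116 CPM on d3 and between 1172 and 2299 CPM on d21, also with overlap. Col1a1 made up most of the osteoblast and osteocyte sum, by group means 23500 of 28920 CPM on d3 and 15930 of 19950 CPM on d21. Within this list, 5 of 10 genes were called higher and 3 lower on d21, against 23.5% and 21.8% of all genes. The erythroid, neutrophil, B cell and plasma cell lists lay higher on d21, with no overlap between the days. The erythroid list (6 of 7 found) was between 590.2 and 681 CPM on d3 and between 20680 and 30730 CPM on d21. The neutrophil list (10 of 10) was between 2312 and 3957 CPM on d3 and between 11960 and 28920 CPM on d21, and the B cell list (9 of 9) was between 29.4 and 35.2 CPM on d3 and between 649.7 and 868 CPM on d21. The list of plasma cells (10 of 10) was between 234 and 421 CPM on d3 and between 1532 and 2513 CPM on d21. The list of monocytes and macrophages (10 of 10) was between 2571 and 5562 CPM on d3 and between 3397 and 4729 CPM on d21, with overlap. The osteoclast list (8 of 8) was between 604 and 1106 CPM on d3 and between 6711 and 9221 CPM on d21, with 8 of 8 genes called higher. On d7 the osteoclast list was at 1523 to 2251 CPM in DIO and 4122 to 5134 CPM in lean callus. The skeletal muscle list (9 of 9) ranged widely within groups, for example from 418 to 14920 CPM in DIO callus of d21. No marker of these lists was at 0 in any group. The part of these shifts in the changes of the 10 genes was not tested.

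**Figure D4:**
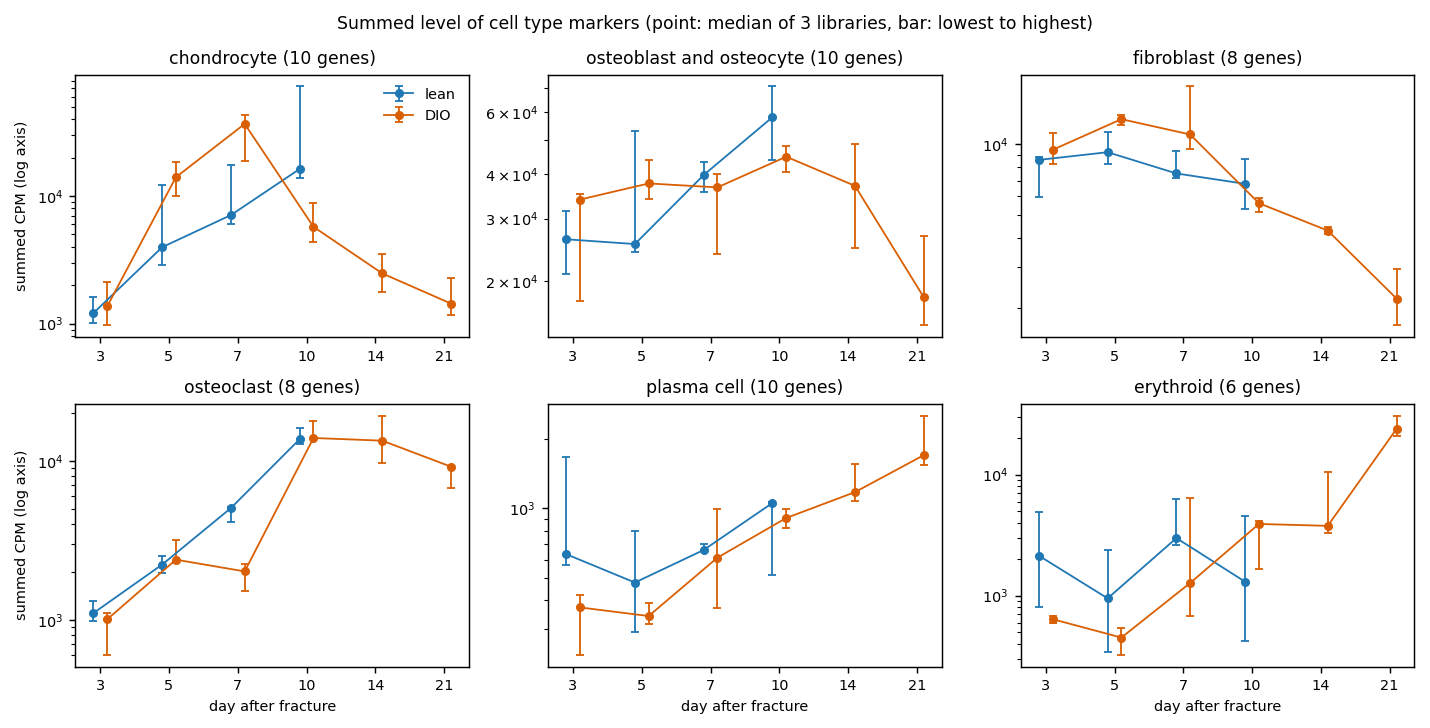
Summed level of 6 marker lists in CPM (vertical axis, log scale) against the day after fracture (horizontal axis, evenly spaced), for lean (blue) and DIO (orange) callus; points are the median of 3 libraries and bars run from the lowest to the highest. The chondrocyte sum was 18800 to 43270 CPM in DIO callus of d7 against 6075 to 17390 CPM in lean callus, and the erythroid sum was highest in DIO callus of d21.

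Within the groups, some of the 10 genes moved together from mouse to mouse. For each of the 45 pairs, Pearson's r was taken over the 30 libraries after the mean log2 CPM of each group had been subtracted. These values describe libraries that share the same scaling, and no test was made. The chaperones Hspa5 and Hsp90b1 had the highest r (0.96, and 0.95 without subtracting the means). Creb3l1 and Creb3l2 came next (0.87), followed by the coat genes Sec23a and Sec24d (0.80). Sec24d also had an r of 0.70 with Creb3l1 and of 0.70 with Creb3l2. In all, 12 pairs were above 0.5 and 9 below 0. The lowest were Ddit3 with Atf6 (-0.55) and Ddit3 with Sec24d (-0.50). The promoters of the chaperones and of the coat genes were printed above partly because these pairs moved together. The Creb3l2 window held none of the motifs searched, and no Creb3l1 window was found. Any part of the motifs in these values was not tested.

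**Figure D5:**
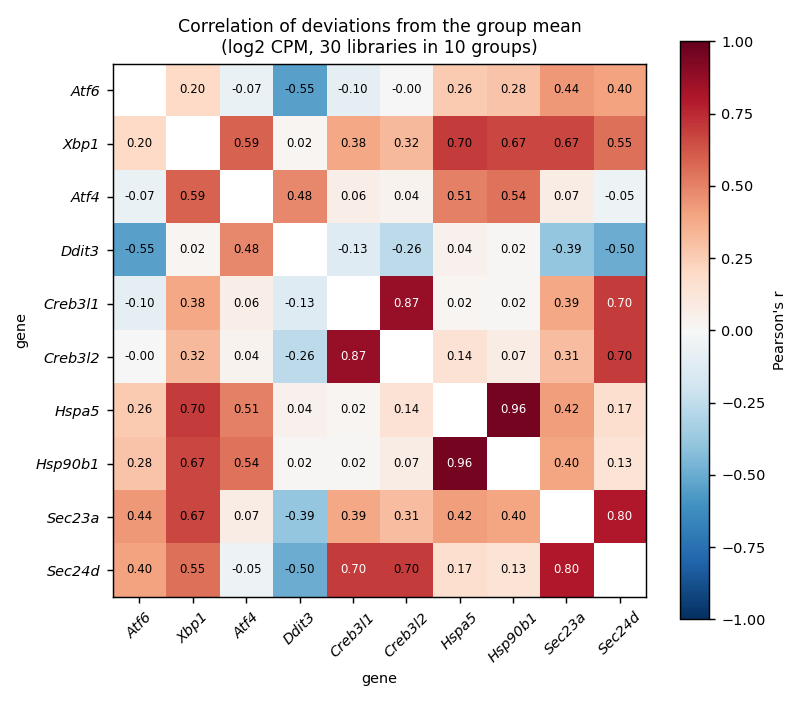
Pearson's r between each pair of the 10 genes (both axes) over the 30 libraries, computed on log2 CPM after subtracting the mean of each of the 10 groups; the color runs from blue (-1) to red (1). Hspa5 with Hsp90b1 has the highest value, 0.96, and Ddit3 with Atf6 the lowest, -0.55.

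Among 14740 genes with a mean of at least 1 CPM, the 3 most like each of 4 members over the 30 libraries were listed by Pearson's r of log2 CPM, without subtracting group means. For Creb3l1 they were Sec31a (0.96), an outer COPII coat gene, Alg3 (0.95), an enzyme of N-glycan assembly in the ER, and Tram2 (0.94). For Sec24d they were Atp6v0a2 (0.93), Acvr1 (0.93) and Armcx4 (0.91). For Xbp1 they were Pla2g4a (0.86), Slc41a2 (0.86) and P4ha1 (0.86), and for Ddit3 they were Ubtf (0.86), A430005L14Rik (0.85) and Fis1 (0.84). These values describe 30 libraries in 10 groups, so shared differences between the groups enter them.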

How the data were processed

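RNA of 30 calluses was sequenced as stranded libraries. Per the labels and the study's methods, the authors aligned reads with HISAT2 (2.1.0) to GRCm38 and counted reads per gene with HTSeq, and they deposited raw counts, used here as deposited. Whether HTSeq counted by strand is not given in the sources used here. Nothing states that libraries of a group shared an animal, and no 2 libraries of a group agreed within sampling noise (chi-square over its degrees of freedom from 13.6 to 160.3 in 30 pairs).

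Comparisons used edgeR 4.0.16 (R 4.3.3) with TMM factors, its filter on low counts, the quasi-likelihood F-test and Benjamini-Hochberg adjustment over all genes of a fit, at 0.05. Fits held the 12 lean libraries, the 18 DIO libraries, the 6 libraries of a day, or the 24 libraries of d3 to d10, where the time course was fitted as a quadratic in day and the diet terms were tested together. The scripts were tested on simulated data. Alternatives were DESeq2 1.42.0, relative log expression factors, total counts alone, no filter, the replicate number as a block, all 30 libraries in 1 fit, and leaving out each library. Same-numbered samples of lean d7 and d5 deviated together (r = 0.38, 0.32 and 0.33), and the block changed no call there. Log2 CPM used a prior count of 2. RPKM used exon lengths of GENCODE, in which 42548 of 43629 genes were found.

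The 10 genes, the lists and the tests were chosen with earlier results of these data known. Genes named from a pathway list come from the 3 with the smallest adjusted p in that comparison (not all 3 are named each time), or are Ern1, Eif2ak3, Mbtps1, Creb3, Creb3l3, Creb3l4, Col1a1, Col2a1 or Col10a1. Marker lists are given by summed level. The replicates are separate samples by their labels. Each p-value sets a difference against the spread between replicates, estimated over all groups of its fit.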

Additional observations from a re-analysis of the deposited data

Results flagged for a closer look

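The diet difference of Creb3l2 changed from d7 to d10 by -1.27 ± 0.27 on the log2 scale (SE), with an adjusted p of 0.00958 in edgeR's test of the change itself over the 24 libraries of d3 to d10. It stood out because DIO and lean callus differed on d7 and the difference was not the same on d10. The d7 difference alone had an adjusted p of 0.0472 in edgeR and passed in 6 of 12 alternatives. All 3 DIO libraries were above all 3 lean libraries on d7, and on d10 the diets overlapped. It was the only one of the 10 genes with such a call, and the part of the chondrocyte share in it was not tested.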

How the results depend on the processing

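The calls for single genes were recomputed 161 times for 13 results under other settings. In 143 the direction and the side of the threshold were kept, in 18 the call was lost and in 0 it was reversed. Of the 10 genes, the number called changed by over 1.5 times as follows. Over all lean days it was 1 in place of 2 with total counts alone, with no filter on low counts and with the replicate block. For lean d10 against d3 it was 3 with total counts alone and 2 with the replicate block, in place of 1. DESeq2 called 1 for DIO d7 against d5, in place of 0, and 3 for DIO against lean on d5, in place of 0. For DIO against lean on d7 it was 0 with total counts alone and 0 with the replicate block, in place of 1. When each library was left out in turn, the number ran from 1 to 2 over all lean days and for lean d10 against d3, from 6 to 8 over all DIO days, from 1 to 3 for DIO d10 against d7, from 0 to 3 for d21 against d14 and from 5 to 8 for d21 against d3. It ran from 0 to 6 for DIO against lean on d5, from 0 to 2 on d7, from 1 to 2 for the change of the diet difference from d7 to d10 and from 1 to 3 for the time course by diet. It stayed at 0 in the other comparisons. The cause of these changes was not tested.

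The replicate numbers could not be tied to shared animals or days. Apart from lean d7 against d5, the deviations of samples with the same number were not correlated above 0.1 in every pair, so the replicate block is given here as an alternative. With this block Hsp90b1 in DIO callus of d21 against d3 had an adjusted p of 0.0572, Sec24d in lean d10 against d3 passed with 0.0386, Hspa5 over all DIO days had 0.0504, Atf4 over all lean days 0.0516 and Creb3l2 between the diets on d7 0.0607, and 4 procollagen folding helpers in place of 7 and 0 chaperones and folding enzymes in place of 2 were higher on d7.

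The number of all genes called by edgeR depended on the tool and filter. On d3 the diets differed for 0 genes, for 753 with DESeq2, 515 with no filter and 325 with the replicate block. On d5 it was 170, with 1116, 565 and 0 in the same order and 63 with all 30 libraries in 1 fit. On d7 it was 366, with 922 by DESeq2, 724 with no filter and 675 with all 30 libraries. On d10 it was 0, with 56, 29 and 3 in that order. For the change of the diet difference from d7 to d10 it was 865 and 1475 by DESeq2, from d3 to d10 1, with 453 by DESeq2, 85 with no filter and 2 with the replicate block, and for the time course 1386 and 2486 by DESeq2. In lean callus it was 3132 and 4777 by DESeq2 over all days. For d5 against d3 it was 74, with 596 by DESeq2, 202 with all 30 libraries, 199 with the replicate block and 169 with no filter. For d7 against d5 it was 0, with 38 by DESeq2 and 2 with all 30 libraries. For d10 against d7 it was 450, with 1773, 1529 and 1479 by DESeq2, all 30 libraries and the replicate block, and 835 with total counts alone. There the total counts moved the median of all genes by -0.22 (log2) and the calls from 179 higher and 271 lower to 87 and 748. In DIO callus it was 285 for d5 against d3, with 580 by DESeq2 and 478 with no filter. For d7 against d5 it was 3, with 337, 271, 1 with all 30 libraries and 2 with total counts alone, whose median moved by -0.13. For d14 against d10 it was 129, with 563 by DESeq2, 379 with total counts alone (334 higher and 45 lower in place of 99 and 30, median moved by 0.11), 329 with no filter, 45 with the replicate block and 2 with all 30 libraries. The lowest count of the 10 genes in a library was 326 reads, so no value of theirs rests on a handful of reads, and each group holds 3 mice.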

Other observations

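Between neighbouring days in DIO callus, genes of collagen folding were called at the steps at which Sec23a fell. From d7 to d10, 8 of 16 procollagen folding helpers were lower and 0 higher, with a median of -0.65 on the log2 scale against -0.02 for all genes (6 to 7 lower when single libraries were left out). Of all genes, 7.01% were lower and 6.01% higher. P3h2 (-2.33 ± 0.22, adjusted p = 3.8e-06 in edgeR), Plod3 (-1.42 ± 0.18, adjusted p = 5.03e-05) and Plod2 (-1.47 ± 0.22, adjusted p = 0.000251), hydroxylases of collagen, were among them. Of the targets of ATF4 and CHOP 6 of 23 were lower and 1 higher, with the pseudokinase Trib3 at -1.51 ± 0.33, adjusted p = 0.00475. Of the collagens 6 of 11 were lower, 3 without any 1 of the d10 libraries. The chondrocyte markers, of which Col2a1 (-3.02 ± 0.84, adjusted p = 0.0229) and Col9a1 are also listed collagens, had 9 of 10 genes lower at this step. The summed fibroblast list also lay lower, between 9510 and 17660 CPM on d7 and between 5140 and 5933 CPM on d10, without overlap. Markers of some other cells were higher, with 8 of 8 osteoclast, 8 of 9 B cell, 5 of 10 osteoblast and osteocyte and 5 of 7 adipocyte genes called. The part of these markers in the changes was not tested.

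From d14 to d21, 8 of 23 targets of ATF4 and CHOP were higher and 1 lower, among them the amino acid transporter Slc7a5 (1.79 ± 0.27, adjusted p = 0.000473), Ppp1r15a (2.24 ± 0.38, adjusted p = 0.00101) and Ppp1r15b (0.98 ± 0.15, adjusted p = 0.000453). Leaving out single libraries gave 5 to 8 higher, with 5 without replicate 1 or 2 of d14. Of all genes, 10.6% were higher and 9.03% lower. Ddit3 itself did not pass the test at this step (log2 fold change 0.16 ± 0.19 (SE), adjusted p = 0.585). Of the procollagen folding helpers 11 of 16 were lower, a number that ran from 2, without replicate 3 of d14, to 13, and was 4 without replicate 1 of d21 and 6 without replicate 3 of d21. At this step 7 of 10 neutrophil and 4 of 6 erythroid markers were called higher, and 6 of 8 fibroblast, 3 of 10 osteoblast and osteocyte and 3 of 8 osteoclast markers lower. Their part in these changes was not tested.

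Among the other cell type markers, the adipocyte list (7 of 7 genes found) was between 109 and 262 CPM on d3 and between 844 and 949.9 CPM on d21 of DIO callus. The endothelial list (7 of 7) was between 452 and 548 CPM on d3 and between 389 and 501 CPM on d21. The list of monocytes and macrophages (10 of 10) was at 3412 to 4904 CPM in lean and 2427 to 2795 CPM in DIO callus of d7.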
